A study of Mus musculus with 27 samples.

Results

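The genes described here are 9 that mark B lymphocytes and their antigen receptor: Cd79a, Cd79b, Ms4a1, Cd22, Fcer2a, Cr2, Pax5, Blk and Bank1. They were taken by symbol from the 55487 genes of the count table, and all 9 were present. RNA was sequenced from whole cortex and hippocampus of male C57Bl/6J wild-type mice aged 8 weeks at the start of the infusion. A pump delivered fluid into the right lateral ventricle for 14 days at 0.25 µl per hour. One group received α-IgLON5#1, a pool of human autoantibodies against the neuronal surface protein IgLON5 purified from the plasma of a patient. A second group received control human IgG, here called pCtrl as in the study. The sample labels describe this IgG as a monoclonal that does not react, whereas the study's methods describe IgG from healthy serum. The remaining group received PBS. Cortex was represented by 5 PBS, 5 pCtrl and 4 α-IgLON5#1 libraries, and hippocampus by 5, 4 and 4. The 27 libraries came from 14 mice, taking the number that opens each label as the mouse, and 13 mice gave both tissues. According to the study's methods the tissue came from the hemisphere opposite the cannula, and the ipsilateral side is not analysed here. The labels give neurons as the cell type, but the tissue was dissected whole.

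A B cell recognises antigen through a membrane immunoglobulin that cannot signal alone. It associates with a heterodimer of CD79A and CD79B, whose cytoplasmic tails recruit the kinases Lyn, Blk and Syk once the receptor is bound. CD22 binds sialic acid and recruits phosphatases that dampen the signal, while CR2 (CD21) binds complement fragments and strengthens it. PAX5 is the transcription factor that holds cells in the B lineage, and it is lost when a B cell becomes an antibody-secreting plasma cell, as are Ms4a1 (CD20) and several receptor genes. The healthy brain parenchyma holds very few B cells, and those of the central nervous system lie mostly in the meninges.

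Promoter sequence was available from RefSeq (GRCm38.p6) for 6 of the 9 genes, in windows of 250 bases before to 50 bases after a transcription start. The windows of Cd79a and Cd22 are shown because these 2 genes were higher after α-IgLON5#1 infusion in the results that follow. The Cd79a window lies at chr7:24897247-24897546 on the plus strand and the Cd22 window at chr7:30878979-30879278 on the minus strand. Both are written 5′ to 3′ along their own gene. Capitals mark matches on either strand to 3 of the 4 short motifs searched, the core letters CCCNNGGG of EBF1, CAGGTG of E2A and GAGGAA of PU.1. The fourth was the octamer ATTTGCAT of OCT factors. No capital letters overlap.
Cd79a: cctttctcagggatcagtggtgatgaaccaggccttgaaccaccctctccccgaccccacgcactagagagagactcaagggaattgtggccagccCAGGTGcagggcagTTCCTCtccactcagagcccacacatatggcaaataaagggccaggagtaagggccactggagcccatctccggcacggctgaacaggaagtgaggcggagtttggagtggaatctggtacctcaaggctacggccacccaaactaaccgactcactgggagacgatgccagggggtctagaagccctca
Cd22: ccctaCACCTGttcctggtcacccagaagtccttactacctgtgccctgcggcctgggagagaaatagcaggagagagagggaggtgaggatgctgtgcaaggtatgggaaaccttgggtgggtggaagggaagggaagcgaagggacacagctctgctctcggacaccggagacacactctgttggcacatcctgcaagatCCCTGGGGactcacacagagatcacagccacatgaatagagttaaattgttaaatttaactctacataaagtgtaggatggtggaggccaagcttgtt
The Cd79a window held 1 match to CAGGTG and 1 to GAGGAA, and the Cd22 window held 1 to CCCNNGGG and 1 to CAGGTG. The octamer was in none of the windows of the 6 genes. Of all 32851 promoter windows of this length, 13.7% held CCCNNGGG, 20.2% held CAGGTG, 28.3% held GAGGAA and 1.74% held ATTTGCAT. These letters are therefore common in promoters at large, apart from the octamer, and a match is not evidence of binding.

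All 9 genes are protein coding in GENCODE M21 (GRCm38). Cd79a spans chr7:24897381-24902197 and Cd79b chr11:106311341-106314762. Ms4a1 spans chr19:11249675-11266241 and Cd22 chr7:30865402-30880342. Pax5 spans chr4:44524757-44710487 and Blk chr14:63372836-63417037. Exons of Pax5 overlap those of Gm12462 and 5730488B01Rik on the other strand, and exons of Cd22 overlap those of the antisense gene Gm29439. How strand was handled in counting is not given in the sources used here, so reads of these pairs could not be told apart with certainty.

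Libraries held 19385642 to 58550621 counts, with a median of 34061205. The α-IgLON5#1 hippocampus libraries were the shallower ones, at 19428512 to 32776892, against 39479753 to 52212204 in pCtrl hippocampus. Levels are given as CPM, counts per 1000000 of the TMM-scaled library size. The B cell genes were rare in every group. Their summed level was 3.65 to 5.25 CPM over the 19 control libraries and 5.70 to 13.2 CPM over the 8 α-IgLON5#1 libraries, so single genes rested on few reads. In whole tissue, fewer cells of a type and less RNA per cell cannot be told apart.

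A gene was tested when at least 4 libraries had at least 10 counts, which left 20271 genes. Of the 9, 8 were tested, and Blk reached 10 counts in 1 library only. Ms4a1 passed through 4 α-IgLON5#1 libraries alone, since 0 of the 19 control libraries reached 10 counts. Cd79b reached 10 counts in 8 α-IgLON5#1 and 4 control libraries, Cd22 in 8 and 6, and Pax5 in 5 and 7. Fcer2a and Bank1 reached it in all 27 libraries, Cr2 in 26 and Cd79a in 21. A gene was called where the adjusted p of edgeR's quasi-likelihood test over all 20271 genes was under 0.05 and the fold change was above 2.

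The first comparison asked what α-IgLON5#1 changed in the hippocampus relative to pCtrl. Ms4a1, Cd79a, Cd79b and Cd22 were higher, which is 4 of the 8 tested, and 0 were lower. Among all genes tested, 2.21% were called higher and 0.237% lower. Against PBS the same 4 genes were called higher and 0 lower, beside 2.56% and 0.109% of all genes. Both comparisons use the same 4 α-IgLON5#1 libraries. Between pCtrl and PBS hippocampus 0 of the 8 were called by edgeR or DESeq2, 1 (Cr2) had an unadjusted p under 0.05, and log2 fold changes ran from -0.22 to 0.51. Of all genes, 0.0493% were called higher and 0.0148% lower there. Ms4a1 entered the test only through α-IgLON5#1 libraries in which it was high, so its call is given as a description. Of the 7 genes that met the count filter in controls alone, 3 were called higher against each control (1.68% of such genes at large against pCtrl and 1.94% against PBS). The plot of values by library shows all 9 genes in the 6 groups.

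**Figure D1:**
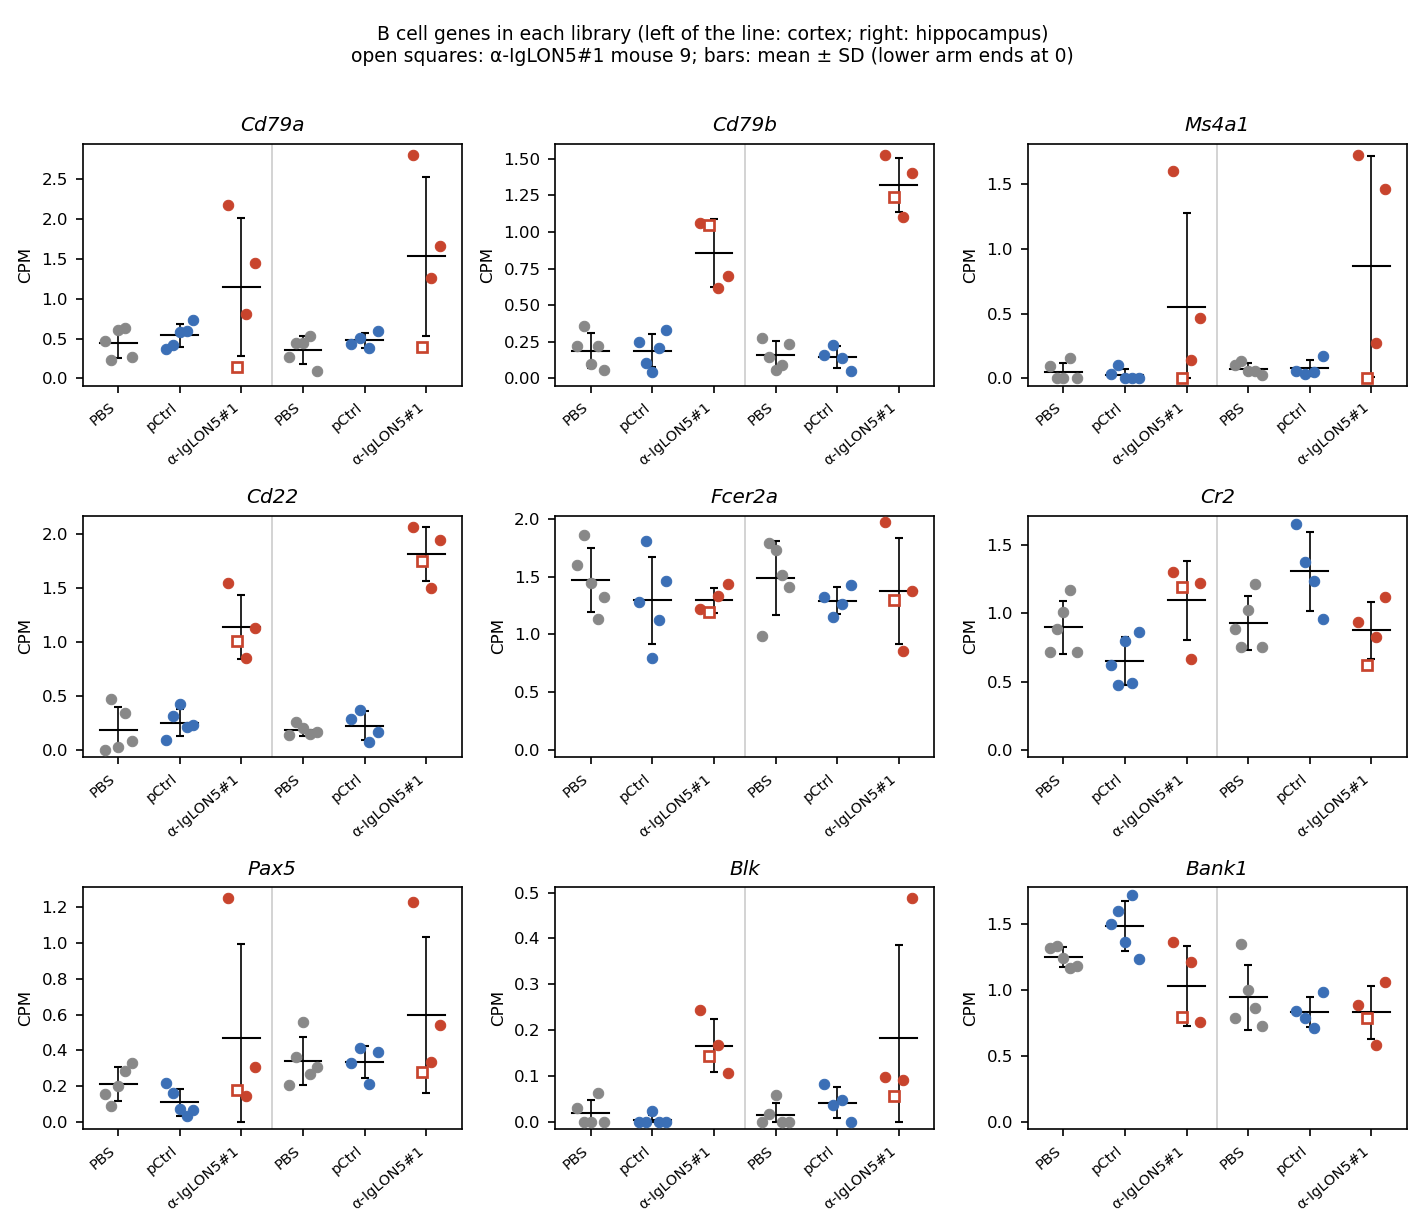
Level (CPM) of each B cell gene in each of the 27 libraries, by infusion, with cortex left and hippocampus right of the grey line in each panel. Points are libraries, open squares are α-IgLON5#1 mouse 9, and bars are mean ± SD. Cd79b and Cd22 of all α-IgLON5#1 libraries sit above all controls of their tissue, while Ms4a1 and Cd79a do so in some mice only.

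The receptor's signalling subunits came first. Cd79b, which encodes the beta chain of the heterodimer, stood at 1.53, 1.24, 1.10 and 1.40 CPM in the hippocampus of α-IgLON5#1 mice 8, 9, 16 and 17. It stood at 0.164, 0.226, 0.143 and 0.0491 CPM in pCtrl mice 10, 15, 37 and 75, and at 0.273, 0.148, 0.0587, 0.089 and 0.235 CPM in PBS mice 14, 32, 33, 38 and 74. Every α-IgLON5#1 library lay above every control library. The log2 fold change was 3.11 against pCtrl (SE 0.43, edgeR adjusted p = 2.86e-05) and 3.01 against PBS (adjusted p = 1.17e-05).

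In cortex, Cd79b stood at 1.06, 1.05, 0.619 and 0.699 CPM in α-IgLON5#1 mice 8, 9, 16 and 17. The pCtrl values for mice 10, 11, 15, 37 and 75 were 0.25, 0.106, 0.0471, 0.211 and 0.333 CPM, and the PBS values for mice 14, 32, 33, 38 and 74 were 0.219, 0.355, 0.101, 0.221 and 0.055 CPM. The groups again did not overlap. Its log2 fold change was 2.15 against pCtrl (SE 0.418, edgeR adjusted p = 0.00197) and 2.14 against PBS (adjusted p = 0.00152).

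Cd79a encodes the alpha chain. In hippocampus it stood at 2.81, 0.394, 1.26 and 1.66 CPM in α-IgLON5#1 mice 8, 9, 16 and 17, at 0.429, 0.508, 0.381 and 0.589 CPM in pCtrl mice 10, 15, 37 and 75, and at 0.273, 0.443, 0.44, 0.534 and 0.0942 CPM in the PBS mice. Mice 8, 16 and 17 lay above all controls and mouse 9 lay among them. Cd79a changed by a log2 fold of 1.68 against pCtrl (SE 0.508, edgeR adjusted p = 0.0434) and 2.10 against PBS (adjusted p = 0.00983). The call against pCtrl was lost without the hippocampus of α-IgLON5#1 mouse 8 or 17 or of any of pCtrl mice 10, 15, 37 and 75 (adjusted p from 0.0544 to 0.194). The call against PBS was lost without that of mouse 8 alone (adjusted p = 0.0863). In a fit on the 2 groups alone the call against pCtrl was lost too (edgeR adjusted p = 0.0963).

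In cortex Cd79a had the same order of mice. It stood at 2.17, 0.144, 0.81 and 1.45 CPM in mice 8, 9, 16 and 17, against 0.376 to 0.732 CPM in pCtrl and 0.236 to 0.631 CPM in PBS. Mouse 9 was below all 10 controls. The difference was not called against pCtrl (log2 fold change 1.08, SE 0.483, edgeR adjusted p = 0.266) or PBS (1.41, SE 0.489, adjusted p = 0.187). Without the cortex of mouse 9 it was called against PBS (adjusted p = 0.0185) and not against pCtrl (adjusted p = 0.0716). Without both tissues of mouse 9, an alternative chosen after seeing the data, it was called in both (adjusted p = 0.0295 against pCtrl and 0.00514 against PBS).

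The products of Cd79a and Cd79b pair in the receptor, but their RNA levels parted in mouse 9. Cd79a and Cd79b stood at 0.394 and 1.24 CPM in its hippocampus and at 0.144 and 1.05 CPM in its cortex, whereas in mouse 8 they stood at 2.81 and 1.53 CPM and at 2.17 and 1.06 CPM. The exon lengths of both genes are close (1457 and 1431 bases), so these levels may be set side by side.

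Ms4a1 encodes CD20, a membrane protein of mature B cells that plasma cells lack. Counts were 35, 0, 9 and 51 in the hippocampus of α-IgLON5#1 mice 8, 9, 16 and 17, or 1.72, 0, 0.276 and 1.46 CPM. The pCtrl counts for mice 10, 15, 37 and 75 were 3, 2, 2 and 7, and the PBS counts for mice 14, 32, 33, 38 and 74 were 3, 8, 2, 2 and 1. Mice 8, 16 and 17 were above all controls, and mouse 9 had no read.

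In hippocampus the log2 fold change of Ms4a1 was 3.46 against pCtrl (SE 0.949, edgeR adjusted p = 0.0266) and 3.43 against PBS (adjusted p = 0.023). Summed over libraries, 95 counts against 14 gave a depth-scaled ratio of 11.9, with an exact 95% counting interval of 6.74 to 22.6. That interval covers counting error only, and the mice differed by more. The call against pCtrl was lost when α-IgLON5#1 mouse 8 or 17 or pCtrl mouse 10, 15 or 37 was left out (adjusted p from 0.0563 to 0.104). That against PBS was lost without α-IgLON5#1 mouse 8 or 17 or PBS mouse 33 or 74 (adjusted p from 0.0595 to 0.121). With DESeq2 in place of edgeR neither passed (adjusted p = 0.0787 and 0.0838). An edgeR fit on the 2 groups alone lost the call against pCtrl as well (adjusted p = 0.102).

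In cortex the Ms4a1 counts of α-IgLON5#1 mice 8, 9, 16 and 17 were 59, 0, 6 and 26. They were 1, 2, 0, 0 and 0 in pCtrl mice and 3, 0, 0, 5 and 0 in PBS mice. The log2 fold change against pCtrl was 4.58 (SE 1.22, edgeR adjusted p = 0.0318), and that against PBS was 3.42 (SE 1.02, adjusted p = 0.0756), which did not pass. The summed counts were 91 against 3 in pCtrl, a ratio of 28.4 with a 95% counting interval of 9.4 to 140. The call against pCtrl was lost without the cortex of α-IgLON5#1 mouse 8 (log2 fold change 3.32, adjusted p = 0.274) or of pCtrl mouse 10, 15, 37 or 75 (adjusted p from 0.0722 to 0.0817). It was also lost in a fit on the 2 groups alone (edgeR adjusted p = 0.113). The call against PBS was gained without mouse 9 (adjusted p = 0.0214) or mouse 16 (adjusted p = 0.0346). A count of 0 in the mouse 9 libraries of 20093818 and 26827119 counts allows up to 3 counts.

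Cd22 encodes the inhibitory lectin of the receptor, which is also known on microglia. In hippocampus it stood at 2.07, 1.75, 1.5 and 1.95 CPM in α-IgLON5#1 mice 8, 9, 16 and 17, at 0.286, 0.376, 0.0714 and 0.172 CPM in the pCtrl mice and at 0.136, 0.263, 0.205, 0.148 and 0.165 CPM in the PBS mice. All 4 were above all controls. Its log2 fold change was 2.94 against pCtrl (SE 0.481, edgeR adjusted p = 0.000264) and 3.23 against PBS (adjusted p = 2.91e-05).

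In cortex Cd22 stood at 1.55, 1.01, 0.857 and 1.13 CPM in α-IgLON5#1 mice 8, 9, 16 and 17. It stood at 0.0939, 0.319, 0.424, 0.211 and 0.233 CPM in the pCtrl mice and at 0, 0.473, 0.0336, 0.347 and 0.0825 CPM in the PBS mice. Again no control reached the lowest α-IgLON5#1 library. The log2 fold change was 2.12 against pCtrl (SE 0.468, edgeR adjusted p = 0.00719) and 2.57 against PBS (adjusted p = 0.00121).

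Cd79b and Cd22 were therefore the 2 of the 8 tested genes that were called in all 4 comparisons of α-IgLON5#1 with a control, and each kept its call there when any 1 library was left out. The 4 comparisons rest on the same 4 α-IgLON5#1 mice, so they are not independent. In a fit on the 2 groups alone, Cd22 lost its call in cortex against PBS (adjusted p = 0.0593). Label numbers ran from 8 to 17 in the α-IgLON5#1 group and were mostly higher in controls, which no label explains. Among mice 8 to 17 alone, the log2 fold change against pCtrl in cortex was 2.66 for Cd79b and 2.0 for Cd22 and neither passed (adjusted p = 0.0513 and 0.0633). Their groups did not overlap in any of the 4. Of all genes tested, 3.22% had all 4 α-IgLON5#1 hippocampus libraries above all 9 controls, and 2.17% had all 4 cortex libraries above all 10. In cortex 3 genes were called against pCtrl (Ms4a1, Cd79b and Cd22, where 2.14% of all genes were called higher) and 2 against PBS (Cd79b and Cd22, where 2.24% were). Of the 7 genes that met the filter in controls alone, 2 were called against each control, beside 1.59% and 1.67% of such genes at large. The 0 called lower stood beside 0.0247% and 0.00493% of all genes. Between pCtrl and PBS cortex 0 of the 8 were called, as were 0% of all genes tested in either direction. DESeq2 called 0 of the 8 there too, and 0 had an unadjusted p under 0.05.

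**Figure D2:**
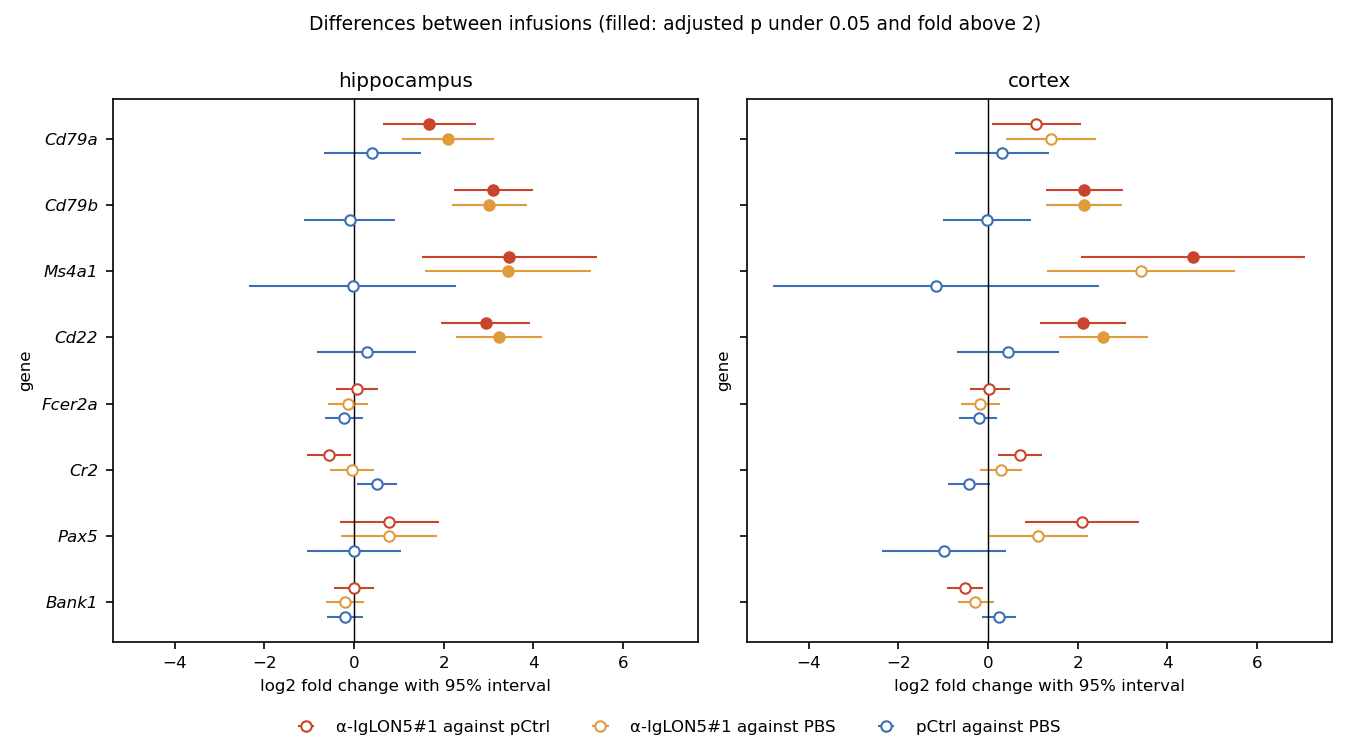
Log2 fold change with its 95% interval for the 8 tested genes (rows), in hippocampus and cortex, for α-IgLON5#1 against pCtrl, α-IgLON5#1 against PBS and pCtrl against PBS. Filled points passed adjusted p under 0.05 and a fold above 2. Cd79b and Cd22 are filled in all 4 comparisons of α-IgLON5#1 with a control, and the intervals of Fcer2a include 0 in both tissues against pCtrl.

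Neither Fcer2a nor Cr2 was called in a comparison of infusions. Fcer2a encodes CD23, the low-affinity IgE receptor of mature follicular B cells. It stood at 0.858 to 1.97 CPM in α-IgLON5#1 hippocampus, 1.15 to 1.42 CPM in pCtrl and 0.989 to 1.79 CPM in PBS, and the groups overlapped in both tissues. The log2 fold change against pCtrl was 0.07 in hippocampus (95% interval -0.40 to 0.54) and 0.03 in cortex (95% interval -0.41 to 0.48). A change of 2-fold lies outside both intervals.

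Cr2 encodes the complement receptor CD21, which follicular dendritic cells also carry. In hippocampus it stood at 0.935, 0.62, 0.827 and 1.12 CPM in α-IgLON5#1 mice 8, 9, 16 and 17, and at 1.66, 1.37, 1.24 and 0.958 CPM in pCtrl mice 10, 15, 37 and 75. The PBS range was 0.753 to 1.22 CPM. In cortex the α-IgLON5#1 values were 1.3, 1.19, 0.667 and 1.22 CPM, against 0.479 to 0.865 CPM in pCtrl and 0.715 to 1.17 CPM in PBS.

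The log2 fold change of Cr2 against pCtrl was -0.56 in hippocampus (95% interval -1.05 to -0.06) and 0.71 in cortex (95% interval 0.23 to 1.20), and neither passed (edgeR adjusted p = 0.103 in cortex). In cortex 3 of the 4 α-IgLON5#1 libraries lay above all 10 controls, and without that of mouse 16 the adjusted p was 0.02, with a log2 fold change of 0.89 that is under 2-fold. The difference between the tissues in this response, tested as an interaction, was -1.27 (SE 0.337, edgeR adjusted p = 0.245) and did not pass. Against PBS the interaction of Cr2 was -0.33 (adjusted p = 1).

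Pax5, the transcription factor, varied between mice. Its counts in α-IgLON5#1 mice 8, 9, 16 and 17 were 46, 5, 6 and 17 in cortex and 25, 5, 11 and 19 in hippocampus. In cortex they were 7, 3, 3, 1 and 2 in pCtrl mice and 5, 3, 6, 9 and 12 in PBS mice. In hippocampus they were 16, 22, 9 and 16 in pCtrl mice and 6, 22, 19, 9 and 13 in PBS mice. Only mouse 8 lay above all controls, in both tissues, at 1.25 and 1.23 CPM.

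Pax5 was not called in any comparison of infusions. In cortex the log2 fold change against pCtrl was 2.10 (SE 0.619, edgeR adjusted p = 0.0591), and it was 1.01 (adjusted p = 0.437) without mouse 8 in either tissue. It passed without the cortex of mouse 9 (adjusted p = 0.0372) or mouse 16 (adjusted p = 0.0161), and with DESeq2 (adjusted p = 0.0238). In hippocampus it was 0.79 (95% interval -0.32 to 1.89). This interval leaves room for a change of 2-fold or none.

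Blk encodes a kinase of the Src family that acts next to the receptor in B cells. Its counts in cortex were 9, 4, 7 and 6 in α-IgLON5#1 mice 8, 9, 16 and 17, and 0, 0, 1, 0 and 0 in pCtrl mice and 1, 0, 0, 2 and 0 in PBS mice. In hippocampus they were 2, 1, 3 and 17 in α-IgLON5#1 mice, 4, 2, 2 and 0 in pCtrl mice and 0, 1, 2, 0 and 0 in PBS mice. The cortex groups did not overlap. In hippocampus most α-IgLON5#1 counts came from mouse 17, which held 17 of the 23.

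Blk was too low for the fit across genes, so each pair of groups was compared by a two-sided exact permutation test of log2 CPM. In cortex the mean was higher after α-IgLON5#1 by 2.57 than in pCtrl (exact p = 0.00794, the smallest that these group sizes allow) and by 2.19 than in PBS (exact p = 0.0159). In hippocampus the difference was 1.36 from pCtrl (exact p = 0.0571) and 2.06 from PBS (exact p = 0.0238). Adjusted over the 6 pairs of groups, the exact p was 0.0476 in both cortex comparisons and in hippocampus against PBS, and 0.0856 in hippocampus against pCtrl. Whether the tissues differed was not tested for Blk. In an edgeR fit without the count filter, Blk passed in cortex against pCtrl (adjusted p = 0.0167) and in hippocampus against PBS (0.0138), and not in cortex against PBS (0.0674) or in hippocampus against pCtrl (0.13). Without any of PBS mice 14, 32, 38 and 74 or α-IgLON5#1 mouse 17, the hippocampus difference from PBS had an exact p of 0.0536 to 0.0571.

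Bank1 encodes a scaffold protein that links the receptor to calcium release. It stood at 0.582 to 1.06 CPM in α-IgLON5#1 hippocampus, 0.714 to 0.982 CPM in pCtrl and 0.73 to 1.34 CPM in PBS. In cortex the ranges were 0.753 to 1.36, 1.23 to 1.72 and 1.17 to 1.33 CPM. Against pCtrl the log2 fold change was 0.00 in hippocampus (95% interval -0.45 to 0.45) and -0.52 in cortex (95% interval -0.92 to -0.12, edgeR adjusted p = 0.173), and neither passed.

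The α-IgLON5#1 mice differed among themselves. Mouse 8 was the highest of the 4 mice for Ms4a1, Cd79a and Pax5 in both tissues. Mouse 9 had 0 counts of Ms4a1 in both tissues, and its Cd79a was 0.961 times the control mean in hippocampus and 0.292 times in cortex. In the same libraries its Cd22 was 8.62 times the control mean in hippocampus and 4.56 times in cortex, and its Cd79b was 8.05 and 5.51 times. The map of ratios by mouse shows that for Ms4a1 and Cd79a the mice fell in the order 8, 17, 16 and 9 in both tissues.

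**Figure D3:**
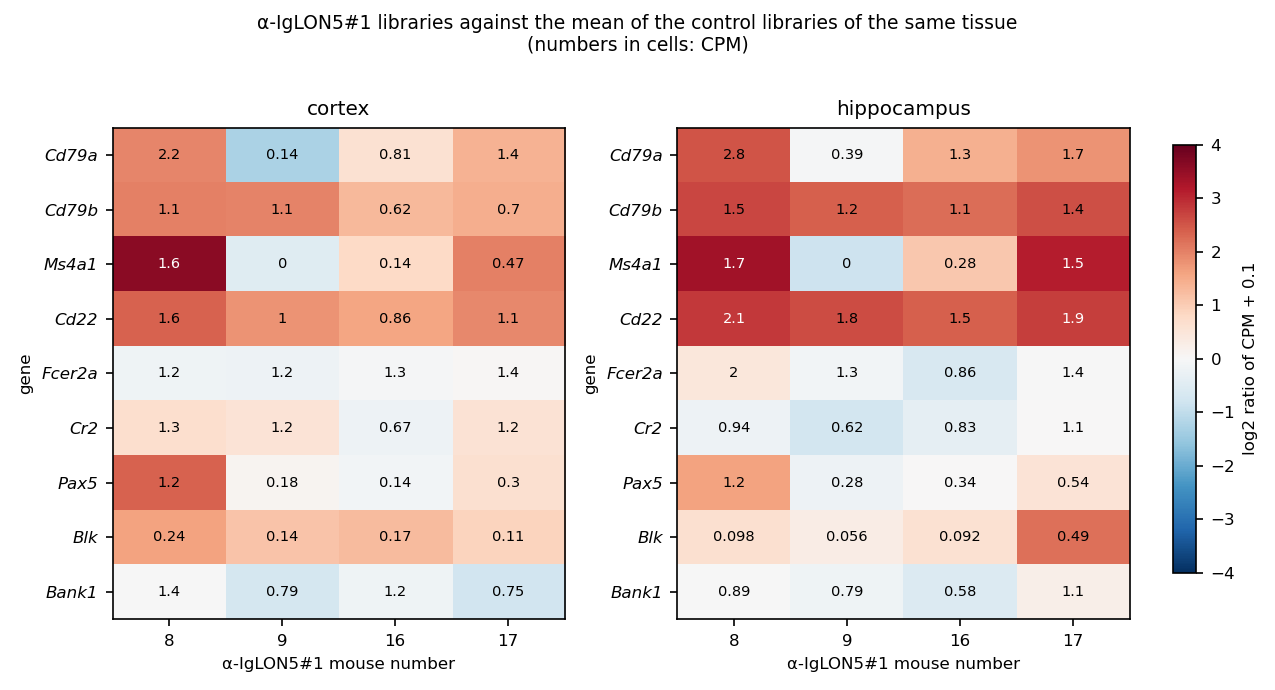
Colour gives the log2 ratio of each α-IgLON5#1 library to the mean of the 9 hippocampus or 10 cortex control libraries, after adding 0.1 CPM to both, and the number in each cell is the CPM. Rows are genes and columns are mice 8, 9, 16 and 17. Mouse 9 is at or under the control mean for Ms4a1 and Cd79a and above it for Cd79b and Cd22.

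Other gene lists also set mouse 9 apart, some low and some high. The summed level of 12 immunoglobulin constant genes was 1100, 97.4, 450 and 1310 CPM in the hippocampus of mice 8, 9, 16 and 17, and 379, 99.3, 234 and 687 CPM in cortex, against 7.48 to 13.7 CPM in control hippocampus and 16.5 to 30.9 CPM in control cortex. The 8 markers of meningeal fibroblasts summed to 377, 77.3, 172 and 356 CPM in hippocampus and 290, 97.5, 201 and 297 CPM in cortex, against 135 to 353 CPM and 127 to 360 CPM in controls. Mouse 9 was thus below all controls for these markers in both tissues, and mice 8 and 17 were the highest of the 4. The 8 border macrophage markers had the same low value in mouse 9, at 7.43 CPM in hippocampus and 9.17 CPM in cortex, against at least 10.7 and 17.1 CPM in controls. The 16 B cell surface genes outside the 9 were instead highest in mouse 9 of the 4 mice. They summed to 40.2, 61.4, 48 and 34 CPM in hippocampus and 45.9, 51.7, 23.8 and 26.6 CPM in cortex. The 8 B cell homing and survival genes were highest in mouse 9 too, at 26.1 and 15.2 CPM.

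Markers of microglia were also highest in mouse 9 in hippocampus. The 10 genes summed to 480, 808, 645 and 491 CPM in mice 8, 9, 16 and 17, against 345 to 432 CPM in controls, and 0 of the 10 were called against pCtrl. Of the 10, 6 had an edgeR adjusted p under 0.05, but the largest log2 fold change was 0.89, under the fold of 2. None of the 10 was at 0 in any group. The part of meningeal tissue, border macrophages and microglia in the levels of the B cell genes was not tested. Leaving out mouse 9 in both tissues gave 4 called genes in hippocampus against each control and 5 and 4 in cortex against pCtrl and PBS. In those fits 1.78% and 2.36% of all genes were called higher in hippocampus, and 2.10% and 2.29% in cortex. The calls it added in cortex were Cd79a and Pax5 against pCtrl and Ms4a1 and Cd79a against PBS.

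Hippocampus and cortex were compared within each infusion. In pCtrl mice Cr2 was higher in hippocampus (log2 fold change 0.97, SE 0.229, edgeR adjusted p = 0.00285) and Bank1 was lower (-0.83, SE 0.198, adjusted p = 0.00323). Their groups did not overlap, as for 8.92% of all genes higher and 10.4% lower in hippocampus. Here a gene was called on adjusted p alone, and 9.23% of all genes were called higher and 10.7% lower, so 1 of 8 in each direction is near the share of genes at large. In PBS mice 0 of the 8 were called by edgeR or DESeq2 (1, Bank1, at an unadjusted p under 0.05), while 26.7% of all genes were called in either direction. Bank1 had a log2 difference of -0.38 there (adjusted p = 0.138) and Cr2 one of 0.04 (adjusted p = 0.933).

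Pax5 had a log2 difference of 1.64 between hippocampus and cortex of pCtrl mice (SE 0.632, edgeR adjusted p = 0.0686). With the mouse as a block it was 1.79 (SE 0.459, adjusted p = 0.0107), which passed. It also passed with DESeq2 (1.65, adjusted p = 0.0484). In edgeR it passed on the 2 groups alone (adjusted p = 0.0178) and without the cortex of pCtrl mouse 10 (adjusted p = 0.0466). In α-IgLON5#1 mice 0 of the 8 were called by edgeR or DESeq2 and 0 had an unadjusted p under 0.05, against 23.9% called among all genes. Cd79b was higher in each of the 4 hippocampus libraries than in each cortex library, as were 11.3% of all genes, with a log2 difference of 0.63 (95% interval -0.12 to 1.39, adjusted p = 0.227). Whether the response to α-IgLON5#1 differed between the tissues was tested directly, and 0 of the 8 genes passed against either control by edgeR or DESeq2. At an unadjusted p under 0.05 there was 1 against pCtrl (Cr2) and 0 against PBS. Over all genes 0% passed against pCtrl, and 0.00493% were higher and 0% lower against PBS. The interaction of Cd79b was 0.96 against pCtrl (95% interval -0.32 to 2.24) and that of Cd22 was 0.83 (95% interval -0.59 to 2.24).

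Levels can be compared between genes once scaled by exon length. In pCtrl hippocampus Fcer2a was the highest, at 0.417 ± 0.0377 CPM per kb (SD, n = 4), followed by Cd79a at 0.327 ± 0.0628, Cr2 at 0.161 ± 0.0358, Bank1 at 0.111 ± 0.0151 and Cd79b at 0.102 ± 0.0511 CPM per kb. The library ranges overlapped for Fcer2a (0.371 to 0.461) and Cd79a (0.261 to 0.404), for Cr2 and Bank1 and for Bank1 and Cd79b, but not for Cd79a and Cr2. Cd22, Pax5, Blk and Ms4a1 followed at 0.0449, 0.0381, 0.0155 and 0.0129 CPM per kb, where neighbours again overlapped. In α-IgLON5#1 hippocampus the order was led by Cd79a at 1.05 ± 0.687 and Cd79b at 0.921 ± 0.129 CPM per kb (SD, n = 4), followed by Fcer2a at 0.444 ± 0.148 and Cd22 at 0.360 ± 0.0492 CPM per kb. Cd79a overlapped all 3 others, since in mouse 9 it stood at 0.271 CPM per kb, below Fcer2a at 0.419 and Cd22 at 0.346.

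**Figure D4:**
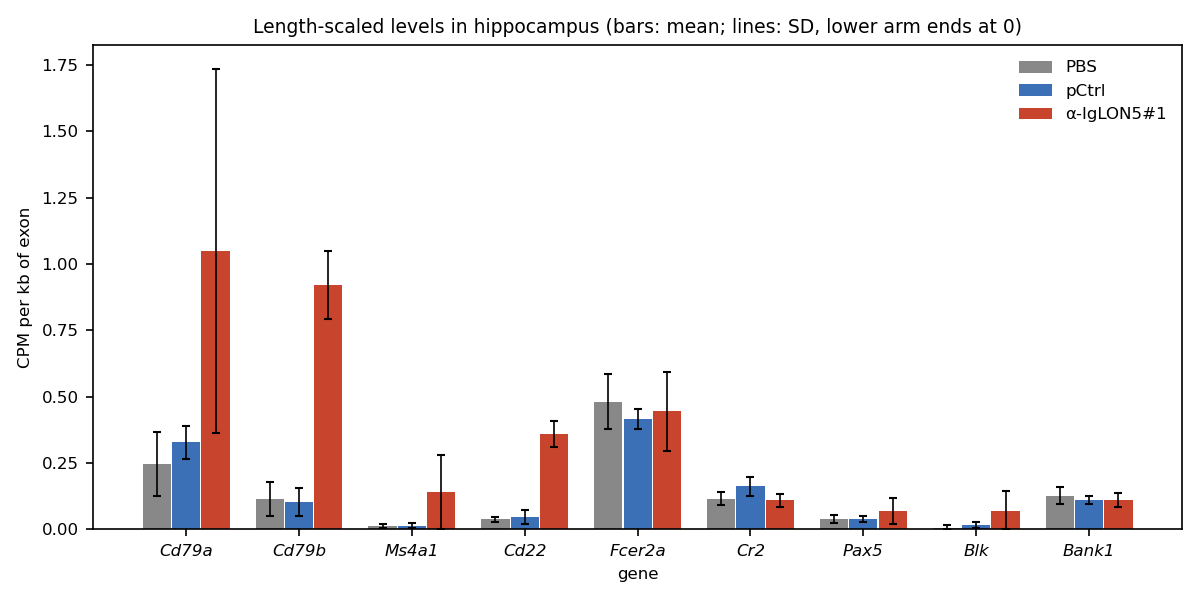
Mean level per kb of exon (CPM per kb, linear axis from 0) of the 9 genes in hippocampus after PBS, pCtrl or α-IgLON5#1 infusion, with SD lines from 5, 4 and 4 libraries. Fcer2a leads in both control groups, and Cd79a and Cd79b lead after α-IgLON5#1.

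In the control brains the 3 genes with the most reads, Fcer2a, Bank1 and Cr2, were thus present beside few reads of the B cell surface marker Ms4a1, which had 0 to 8 counts in the 19 control libraries. The cells that express Fcer2a, Bank1 and Cr2 there were not identified in these bulk libraries.

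The rest of the pathway was read from lists chosen with earlier results of these data known. Against pCtrl hippocampus, 7 of 13 tested genes among other B cell surface genes were called higher and 0 lower, with a median log2 fold change of 1.39 beside 0.0012 over all genes. Cd72, an inhibitory coreceptor also known on activated microglia, rose by 4.95 on the log2 scale (SE 0.577), the scale of the changes that follow. Ly6d rose by 3.72 (SE 0.641) and Siglecg by 2.43 (SE 0.721). Of the 7, 2 met the count filter only through α-IgLON5#1 libraries, Siglecg among them, which left 5 of 10. In cortex 2 of the 13 were called higher against pCtrl, Cd72 and Cd180. Against PBS 9 of the 13 were called higher in hippocampus and 5 in cortex.

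Signalling genes downstream of the receptor gave 9 of 16 called higher and 0 lower in hippocampus (median 1.09) and 6 of 16 in cortex (median 0.67). Pik3ap1 rose by 1.97 (SE 0.294), Vav1 by 1.75 (SE 0.233), the kinase Btk by 1.52 (SE 0.204) and Lat2 by 1.41 (SE 0.272) in hippocampus. These genes are used by myeloid cells as well as B cells, and they were expressed in pCtrl hippocampus, where Pik3ap1 stood at 6.60 ± 0.647 CPM (SD, n = 4). Of the receptor's inhibitors, 4 of 8 were called higher in both tissues, namely Pirb, Lilrb4a, the phosphatase Ptpn6 and the Fc receptor Fcgr2b. Pirb rose by 2.88 (SE 0.44) and Ptpn6 by 2.14 (SE 0.226) in hippocampus.

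Of the transcription factors, 7 of 12 were called higher in hippocampus (median 1.08) and 5 of 12 in cortex (median 0.80), and 0 were lower. Pou2af1, the B cell coactivator of OCT factors, rose by 4.46 (SE 0.787), from 0.103 ± 0.05 CPM in pCtrl to 2.32 ± 1.98 CPM (SD, n = 4 each). Spib rose by 3.50 (SE 0.538), Ikzf3 by 2.42 (SE 0.641) and Spi1, which microglia also use, by 1.78 (SE 0.273). Pou2af1, Spib and Ikzf3 met the count filter only through α-IgLON5#1 libraries, so their calls are given as a description. Without them 4 of 9 were called in hippocampus and 2 of 9 in cortex. In edgeR's test, genes of developing B cells gave 0 called of 4 tested and germinal centre genes 0 of 5 in either tissue, with 0 and 1 at an unadjusted p under 0.05 in hippocampus and 0 and 0 in cortex. The named members of those lists, Cd93, Lef1, Basp1 and Bcl6, had log2 fold changes of 0.40, -0.39, -0.13 and 0.15 in hippocampus.

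Plasma cell genes gave 2 of 9 called higher in hippocampus and 1 of 9 in cortex. Jchain, which joins secreted IgM and IgA, rose by 6.44 (SE 0.652) and Irf4 by 2.67 (SE 0.404) in hippocampus. The immunoglobulin constant genes gave 10 of 11 called higher in hippocampus (median 7.21) and 9 of 11 in cortex (median 5.60). Without the 5 that met the filter only through α-IgLON5#1 libraries (Igha, Ighg3, Iglc1, Iglc2 and Iglc3), the counts were 5 of 6 and 4 of 6. The infused antibody was human protein, and these are mouse transcripts. Ighg2b rose by 9.64 (SE 1.14) to 206 ± 197 CPM (SD, n = 4). B cell homing and survival genes gave 2 of 5 called higher against pCtrl in hippocampus and 1 of 5, Cxcl13, in cortex, and 4 and 3 of 5 against PBS. In hippocampus Cxcl13, the chemokine that attracts B cells, rose by 7.98 (SE 0.882), and Tnfsf13b, which encodes the survival factor BAFF, rose by 1.45 (SE 0.277). In cortex Tnfsf13b was not called against pCtrl (edgeR adjusted p = 0.177) or PBS (adjusted p = 0.152). Cxcl13, and Ccr7 among the calls against PBS, met the filter only through α-IgLON5#1 libraries. Without them 1 of 3 were called against pCtrl in hippocampus and 0 of 3 in cortex. Against PBS the counts were 2 of 3 and 1 of 3.

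**Figure D5:**
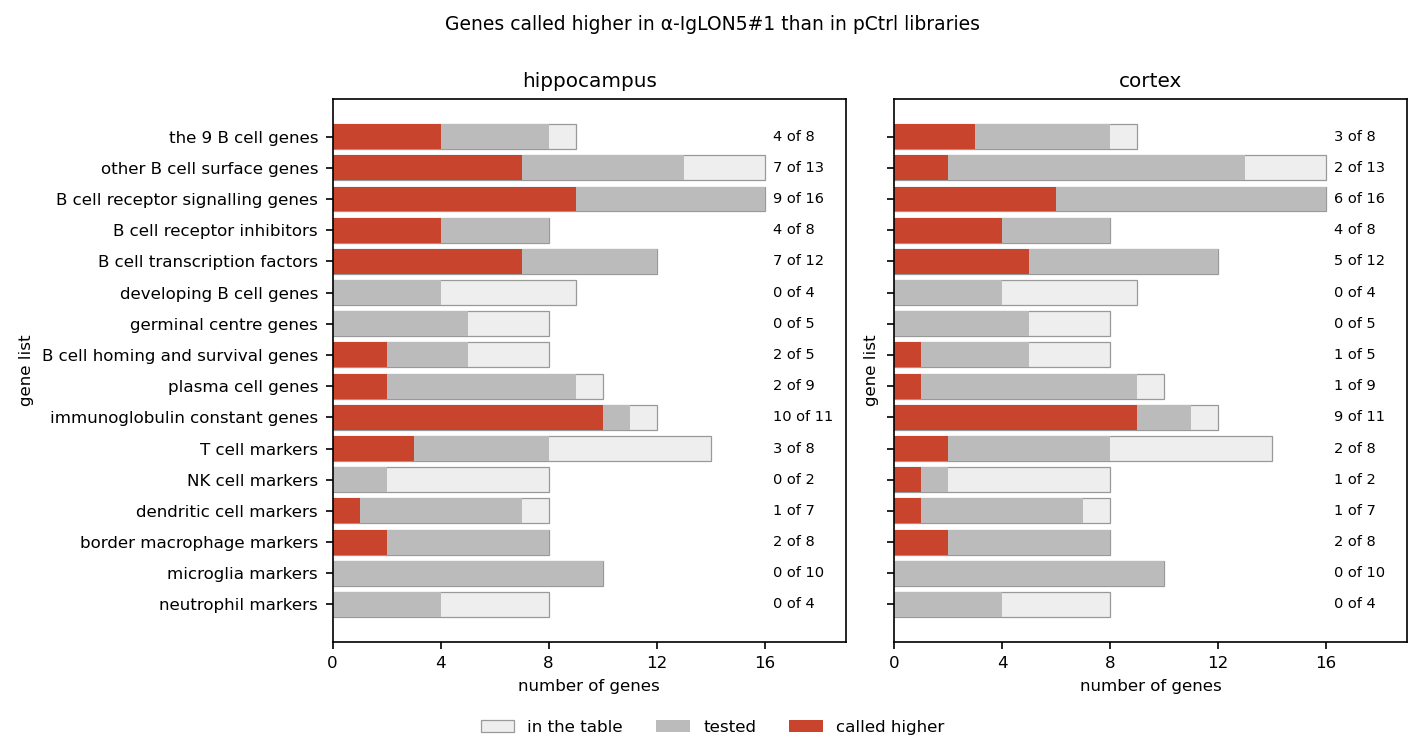
Number of genes of each list in the count table (light), tested (grey) and called higher in α-IgLON5#1 than in pCtrl libraries (red), in hippocampus and cortex. The B cell genes had 4 of 8 and 3 of 8 called, beside 10 of 11 and 9 of 11 immunoglobulin constant genes and 0 of 10 microglia markers. A call also needs a fold above 2. On edgeR adjusted p under 0.05 alone, 6 of the 10 microglia markers passed in hippocampus and 0 in cortex.

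Markers of other cells that tissue could hold were counted in the same comparison. T cell markers gave 3 of 8 called higher in hippocampus, Icos, Cd5 and Cd4, with 1 of 7 dendritic cell markers (Itgax), 1 of 4 follicular dendritic cell markers (Cxcl13, also in the homing list) and 0 of 2 NK cell markers (both at an unadjusted p under 0.05). The NK cell markers Klrd1 and Klrk1 were both called higher against PBS in either tissue, and 1 of them, Klrd1, against pCtrl in cortex. All 8 NK cell markers in the count table summed to 1.06 to 2.81 CPM in α-IgLON5#1 hippocampus, where pCtrl and PBS libraries held 0.118 to 0.62 CPM. Of these Icos, Cd5, Cxcl13, Klrd1 and Klrk1 met the filter only through α-IgLON5#1 libraries. Border macrophage markers gave 2 higher, Clec12a and Ms4a7, and 1 lower, Lyve1, of 8. Neutrophil, erythrocyte, neuron, hippocampal neuron, oligodendrocyte, choroid plexus and meningeal fibroblast markers gave 0 called of those tested by edgeR (7 in all at an unadjusted p under 0.05, 4 of them neuron markers, of which Tubb3 had an adjusted p of 0.0269 with a log2 fold change of -0.34), and astrocytes gave 1 of 6, Gfap. The T cell markers summed to 5.79 to 11.1 CPM in α-IgLON5#1 hippocampus, against 3.0 to 5.57 CPM in controls. In α-IgLON5#1 mouse 8 the neutrophil markers summed to 14.8 CPM in cortex and 8.12 CPM in hippocampus. Controls held at most 3.9 and 4.81 CPM, and the other α-IgLON5#1 mice at most 2.15 and 2.46 CPM.

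The genes whose level ran most like the summed counts of the 9 over the 27 libraries were mostly immunoglobulin variable genes. These 9 variable genes met the count filter only through α-IgLON5#1 libraries, with 0 controls at 10 counts, so the ranking is a description. The Pearson correlation of log2 CPM was 0.926 for Ighv2-9-1, 0.924 for Igkv5-43, 0.92 for Igkv14-126 and Igkv4-61, 0.915 for Ighv1-55, 0.914 for Ighv14-2, 0.906 for Igkv8-24 and 0.905 for Igkv8-30 and Igkv4-53. Pirb, at 0.911, was the other of the 10. The 27 libraries include all 3 infusions, and how much the difference between infusions adds to these values was not tested. Over the 8 α-IgLON5#1 libraries alone these 10 had correlations of 0.797 to 0.961 and ranked between 9 and 443, so only 1 of them, Ighv1-55, stayed among the first 10. The first 3 there were Fignl2 at 0.978, Mmp14, and Slc1a5 at 0.974, named after their values were seen. Variable genes of one family share sequence, so reads may be split between them.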

How the data were processed

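Per the labels and the study's methods, polyadenylated RNA of dissected cortex and hippocampus was made into stranded TruSeq libraries and sequenced in paired-end mode. Reads were aligned with STAR to GRCm38. The authors deposited one table of raw read counts per Ensembl gene for the 27 libraries; the counting program, annotation and strand setting are not given in the sources used here. Identifiers were matched to GENCODE M21 without their version (55141 of 55487 had a symbol), and 0 columns were left unassigned.

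Counts were analysed in R 4.3.3 with edgeR 4.0.16 (TMM scaling, estimated dispersions, quasi-likelihood F test) in 1 fit of the 6 groups of tissue by treatment, for genes that reached 10 counts in 4 or more libraries, the study's filter. P-values were adjusted by Benjamini-Hochberg over the 20271 genes. Comparisons of infusions called a gene at adjusted p under 0.05 and a fold above 2, and those of tissues and interactions at adjusted p under 0.05. The SE was the log2 fold change divided by the square root of F. Blk, below the filter, was compared by exact permutation with a prior count of 1 scaled to library size. Alternatives were DESeq2 1.42.0, other size factors, filters and sample sets, the mouse as a block, and each library left out. The test script was tested on simulated data. The 48 pairs of libraries within groups all differed beyond sampling noise (smallest chi-square per degree of freedom 4.54), so none was counted as a duplicate.

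Same-numbered cortex and hippocampus libraries were taken as 1 mouse from the labels. Their deviations from the group means correlated at a median of 0.194 over 13 pairs (-0.0498 to 0.443). All 9 genes are named; of other lists, at most the 4 called in hippocampus against pCtrl with the largest change are named, or the 2 with the highest mean CPM where none was called. Likeness was ranked over the 27 libraries and the first 10 genes are named. Other genes of a count of 5 or fewer were named after their values were seen. The 9 genes and all lists were chosen with earlier results of these data known. Counting intervals cover counting error only, since reads carried no molecular identifiers.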

Additional observations from a re-analysis of the deposited data

Results flagged for a closer look

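Dixon's test was applied to 54 groups of 4 or 5 libraries for the 9 genes. In 4 of them 1 library stood apart from the others of its group. The test's rate of about 1 in 20 groups is set for normally distributed values, so it need not hold for counts near 0. Pax5 in α-IgLON5#1 cortex stood at 1.25 CPM (46 counts) in mouse 8, against 0.143 to 0.305 CPM in the other mice. Blk in α-IgLON5#1 hippocampus stood at 0.487 CPM (17 counts) in mouse 17, against 0.0563 to 0.0984 CPM in the others. The other 2 rested on 1 or 2 counts of Blk, at 0.0236 CPM in pCtrl cortex of mouse 15 (others 0) and 0.0587 CPM in PBS hippocampus of mouse 33 (others up to 0.0164).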

How the results depend on the processing

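Over 1983 alternative values 0 reversed a call, and 113 values that were not called changed sign. Of 1702 values of single genes, 1638 kept their side of the threshold, 45 lost it and 19 gained it. Requiring 10 counts in every library left 2 of the 8 genes with a value (Fcer2a and Bank1) and 0 calls in each of the 4 comparisons of α-IgLON5#1 with a control, and 1 call (Bank1) between the tissues of pCtrl mice. Fitting only the groups compared gave 2 calls in hippocampus against pCtrl (Cd79b and Cd22) and 1 in cortex against PBS (Cd79b), from fewer residual degrees of freedom. Restricting to mice 8 to 17 leaves 1 PBS library per tissue, which is assumed to vary like the other groups, so counts against PBS say little there. It gave 2 calls in hippocampus against pCtrl, 0 in hippocampus against PBS, 0 in cortex against pCtrl and 0 in cortex against PBS, and 1 between the tissues of pCtrl mice (Cr2). Leaving out 1 library or 1 α-IgLON5#1 mouse gave 2 to 4 calls in hippocampus against pCtrl, 2 to 4 in hippocampus against PBS, 2 to 5 in cortex against pCtrl and 2 to 4 in cortex against PBS. With 1 α-IgLON5#1 mouse left out in both tissues, 1.25% to 2.77% of all genes were called higher in these 4 comparisons. Leaving out 1 library or mouse gave 0 to 1 calls between the tissues of α-IgLON5#1 mice and 0 to 1 between those of PBS mice. For Blk in hippocampus against PBS the difference ran from 1.5 to 2.37, and its exact p was above 0.05 in 5 of these fits. The mouse as a replicate block changed the call of Pax5 between the tissues of pCtrl mice (1.79) and no other call of the 8 genes. The cause of these changes was not tested. The mouse sets of each infusion are separate, so no block was possible between infusions. Alternatives that leave out a mouse in both tissues were added after seeing the data. Ms4a1, Cd79b, Pax5 and Blk had under 10 counts in most libraries, and Cd22 in 13 of 27, which limits the precision of their values.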
